A study of Bos taurus with 3 samples.

Results

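The cells described here are rumen epithelial cells in which the 13 protein-coding mRNAs of the mitochondrial genome gave 20% or more of the UMIs. A UMI (unique molecular identifier) tags each captured transcript once, so that PCR copies of it are not counted again. The mitochondrial mRNAs that chose the cells were *ND1* to *ND6*, *ND4L*, *COX1* to *COX3*, *ATP6*, *ATP8* and *CYTB*. The limit was met by 2048 of 20728 cells (9.88%), and the nuclear genes of these cells, called high cells below, were compared within each cow with those of the 15107 cells at 5 to 15%, called comparison cells. The animals were 3 adult, lactating Holstein dairy cows kept under 1 condition. Tissue of the ventral sac of the rumen gave 1 droplet library for each, so each cow gave 1 sum of high cells and 1 sum of comparison cells. Freed by enzymes, the cells were depleted of dead cells by the authors, who later removed cells of non-epithelial types. The number at the end of each barcode gave the library and was read as the cow's number.

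Mitochondria keep a small genome of their own, whose mRNAs encode the core subunits of respiratory complexes I, III and IV and of ATP synthase (complex V), while all other subunits, including the whole of complex II, are encoded in the nucleus. In the rumen, mitochondria of the stratified epithelium oxidise volatile fatty acids (VFAs) taken up from the lumen and turn butyrate into ketone bodies. Basal cells that attach to the basement membrane divide, and their daughters pass through spinous and granular layers, in which gap junctions couple neighbouring cells. A high mitochondrial share of UMIs is widely used as a filter on damaged cells, but tissues with a high respiratory rate also show it.

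The mitochondrial share set the members and is given as a description only. Cow 1 had 1365 high cells among 3369 (40.5%), cow 2 had 137 among 7401 (1.85%) and cow 3 had 546 among 9958 (5.48%). The exact binomial 95% intervals, which cover counting error only, were 38.85 to 42.2%, 1.56 to 2.19% and 5.04 to 5.95%. The mean was 15.95% ± 21.35 (SD, n = 3 cows). Cow 1 thus supplied 66.65% of the high cells but 7.957% of the comparison cells, whose numbers were 1202, 6334 and 7571 in cows 1 to 3. The libraries held 38912809, 94856658 and 104189434 UMIs. Pooling cells over cows would have compared cow 1 with the others, and no comparison below pools them.

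**Figure D1:**
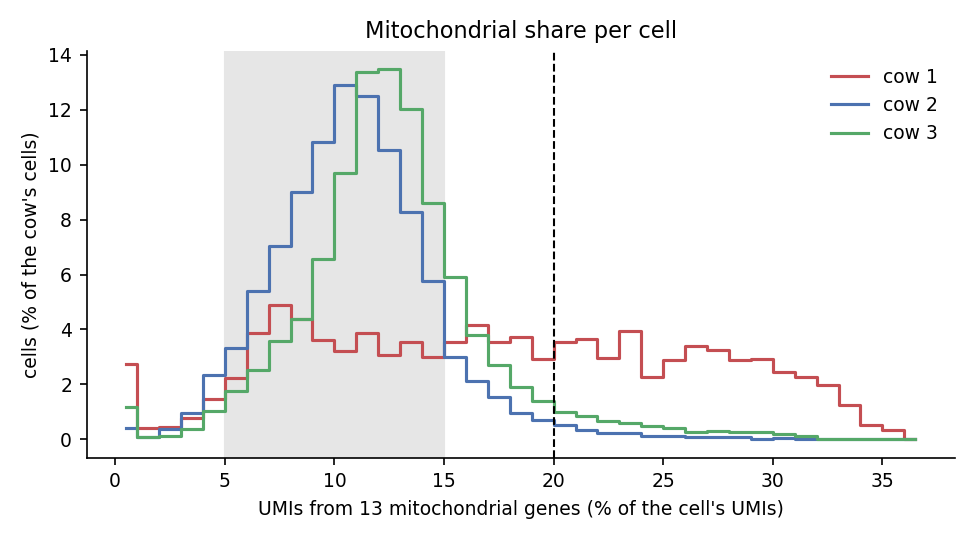
The horizontal axis is the share of a cell's UMIs from the 13 mitochondrial genes in bins of 1%, and the vertical axis is the percent of each cow's cells in a bin. The dashed line marks the limit of 20%, the grey band the comparison cells at 5 to 15%, and cow 1 has a broad spread of shares with 40.5% of its cells past the limit, against 1.85% in cow 2 and 5.48% in cow 3.

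No break stood at the limit. Cells at 18 to 20% numbered 225, 125 and 330 in cows 1, 2 and 3, and cells at 20 to 22% numbered 242, 64 and 184. The gap junction gene *GJA1* was at 163, 400 and 112 plain CPM (UMIs per 1000000 nuclear UMIs of the same cells) just below the limit and at 245, 430 and 152 just above it. The highest share in any cell was 36.14%. When 24 gene identifiers without a symbol that stand beside the mitochondrial genes in the table, and whose identity was not determined here, were added, it was 39.99%, just under the 40% above which cells had been excluded before deposit. The 20% limit thus counts the 13 named genes only, and any other mitochondrial RNA is outside it. These identifiers were left out of both the 13 genes and the nuclear genes.

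High cells held more mitochondrial and fewer nuclear UMIs. Median mitochondrial UMIs per cell were 3091 in high against 839.5 in comparison cells in cow 1, 2847 against 1293 in cow 2 and 1761 against 1191 in cow 3. Median nuclear UMIs were 7893 against 8258 in cow 1, 8961 against 10318.5 in cow 2 and 5143 against 8430 in cow 3, so high cells were shallower in nuclear UMIs in all 3 cows, least in cow 1 and most in cow 3. These depths entered the rule through the share and are descriptions. The part of cells under 3000 nuclear UMIs was 14.29% of high against 4.825% of comparison cells in cow 1, 6.569% against 0.7894% in cow 2 and 13.37% against 1.109% in cow 3.

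At equal nuclear depth, high cells held more different genes. With each cell thinned to 3000 nuclear UMIs, and with the 195, 9 and 73 high and the 58, 50 and 84 comparison cells of cows 1, 2 and 3 below that depth left out, the median number of nuclear genes with a UMI was 1168 in high against 1029 in comparison cells of cow 1, 1026.5 against 946 in cow 2 and 1148 against 1039 in cow 3. Without thinning, the medians were 2211 against 2049.5, 2089 against 2088.5 and 1660.5 against 2048. The difference after thinning was 109.5 ± 29.25 genes (SD, n = 3 cows) with the same sign in 3 of 3 cows. The exact sign-flip permutation test gave a two-sided p of 0.25, the smallest that 3 pairs allow.

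The mix of mitochondrial mRNAs also differed between the classes, which is again a description of the genes that chose the cells. *COX1*, the catalytic subunit of cytochrome c oxidase, made up 22.89% of the UMIs of the 13 genes in high cells against 18.29% in comparison cells of cow 1, 28.62% against 24.88% in cow 2 and 22.88% against 22.4% in cow 3. *CYTB*, a subunit of complex III, took 12.72% against 9.947%, 10.86% against 9.826% and 13.47% against 12.91%. *ND1*, a complex I subunit, took 5.089% against 7.796%, 3.703% against 4.672% and 3.695% against 3.77%. *COX1*, *COX2* and *CYTB* took a larger part in high cells of all 3 cows, *ND3* did so in cow 3 only, and the other 9 took a smaller part in all 3 cows, with differences in cow 3 that were often small. The given marker *ND4* took 7.795% against 8.43%, 7.422% against 8.162% and 6.903% against 6.981%.

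The labelled tissue matched its markers. Basal keratins were abundant in high cells, with *KRT5* at 5682, 5535 and 9634 and *KRT15* at 7370, 7809 and 7876 plain CPM in cows 1 to 3. Markers of other cell types were low. The 7 fibroblast markers in the table, of 8 listed, summed to 0.9344, 0 and 0.9181 in high against 0.6328, 0.3286 and 2.631 in comparison cells, and 4 of them were at 0 in all high cells. The 7 smooth muscle markers summed to 10.99 to 20.51 against 25.97 to 32.09, the 7 endothelial markers to 4.285 to 7.05 against 2.643 to 3.887, and the 11 immune markers in the table, of 12 listed, to 29.69 to 66.73 against 25.32 to 54.96. Of these lists, 4 smooth muscle, 1 endothelial and 1 immune marker were at 0 in all high cells. *MYL9*, a myosin light chain that epithelial cells also make, was lower in high cells, with a log2 fold change of -1.10 ± 0.149 (SE) and an adjusted p of 0.00026 (edgeR). Of 6 immune markers tested, *CD14* was lower (-0.62 ± 0.176, adjusted p = 0.021, edgeR) and 0 were higher, beside 12.9% lower and 11.1% higher among all genes. The call of *CD14* was lost without cow 1 (-0.27, adjusted p = 0.46), with DESeq2 (adjusted p = 0.053), and after the matching of cells on clusters or on nuclear UMIs that is described further on. The matching on clusters also ended the call of *MYL9* (-0.43, adjusted p = 0.055, edgeR). The part of such cells in the results below was not tested, and no cluster or class among them was given a cell type name.

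Nuclear genes were then tested. UMI counts of each nuclear gene were summed per cow and class, and the 2 sums of a cow were compared by the edgeR quasi-likelihood test with the cow as a block and Benjamini-Hochberg adjustment over the 10733 genes tested. A gene is called higher or lower in high cells at an adjusted p under 0.05 and an absolute log2 fold change above 0.36. Levels of single genes are CPM after TMM scaling, which evens out differences in RNA makeup between the sums, unless plain CPM are named. Each log2 fold change is a difference between high and comparison cells, with an SE derived from the edgeR F statistic. High cells were higher for 1196 genes (11.1% of those tested) and lower for 1389 (12.9%). The direction was the same in all 3 cows for 1159 and 1365 of them. With TMM the median log2 fold change of all genes was -0.0085. Scaled to nuclear UMIs with no TMM, an alternative added after seeing the data, that median was 0.25 and 2944 genes were higher (27.4%) and 561 lower (5.23%), so that 84.0% of the calls were higher against 46.3% with TMM. Scaled to all UMIs, mitochondrial ones included, 1060 were higher (9.89%) and 1607 lower (15%). Changes are therefore read relative to the typical nuclear gene. Other choices of cells, described further on, ended many calls. They are the matching of cells on clusters (6.99% of genes higher and 6.04% lower) and the leaving out of cells with a UMI of *GJA1*, *MKI67* or *TOP2A* (8.66 and 10.2%), called marker-free cells. Losses under these choices are given with the genes they touch. *PHGR1*, *GJB2*, *SLC9A2* and *SLC9A3* were too low to be tested in marker-free cells, and *GJA1*, *MKI67* and *TOP2A* have no UMI there by choice. For *COX8B*, *DLK2* and *DSC2*, no values under these choices are given.

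The 10 genes with the largest increases included a pair of connexin genes, whose products form gap junctions. *GJA1*, which encodes connexin 43, was at 291, 506 and 163 CPM in high cells of cows 1, 2 and 3 against 15.0, 27.2 and 15.9 CPM in comparison cells. All 3 high sums lay above all 3 comparison sums, and the log2 fold change was 3.94 ± 0.170 (adjusted p = 2.4e-08, edgeR). *GJB2*, encoding connexin 26, was at 15.0, 64.0 and 31.0 against 0.459, 2.42 and 4.67 CPM. It rose by 3.78 ± 0.323 on the log2 scale (adjusted p = 1.3e-05, edgeR). *PHGR1* was at 39.9, 40.2 and 26.2 against 2.29, 0.913 and 2.70 CPM, with a log2 fold change of 4.11 ± 0.298 (adjusted p = 3.7e-06, edgeR). These genes showed no overlap between the classes. *GJB2* lost its call after matching on clusters, and neither *GJB2* nor *PHGR1* could be tested in marker-free cells.

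A retinol-binding protein and enzymes stood among the 10 as well. *RBP2*, a cellular retinol-binding protein, was at 41.4, 118 and 25.1 against 2.48, 6.30 and 3.14 CPM, a log2 fold change of 3.75 ± 0.212 (adjusted p = 4.4e-07, edgeR). *BREH1*, a retinyl ester hydrolase, was at 203, 459 and 298 against 26.2, 89.8 and 123 CPM, a log2 fold change of 2.17 ± 0.224. *ADH6.1*, an alcohol dehydrogenase, was at 1.15, 63.2 and 12.03 against 0, 5.88 and 1.82 CPM and rose by 3.16 ± 0.264. The classes did not overlap for *RBP2* and *BREH1*, whereas the high sum of *ADH6.1* in cow 1 lay below the comparison sums of the other cows. No list of retinoid genes was drawn up, so no count is given for such genes.

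Others of the 10 encode secreted, structural or transport proteins. *BPIFA2C*, a secreted BPI-fold protein, was at 379, 539 and 162 against 18.9, 40.1 and 35.0 CPM (log2 fold change 3.41 ± 0.287). *SLC14A1*, the urea transporter through which blood urea reaches the rumen, was at 182, 202 and 198 against 25.2, 60.9 and 64.8 CPM (2.05 ± 0.190). *KRT6B*, a keratin of activated and suprabasal keratinocytes, was at 1.43, 99.3 and 75.7 against 0.184, 11.3 and 30.6 CPM (2.15 ± 0.293). Cow 1 was far below the other cows in both classes for *KRT6B*, and reads of it and of its close relative *KRT6A* may be split by the counting. Its log2 fold change turned to -0.80 after matching on clusters, where it was called lower (adjusted p = 7.2e-09, edgeR). *GFRA2*, a receptor of the neurturin family, was at 24.5, 92.7 and 29.7 against 3.58, 27.3 and 9.36 CPM (1.98 ± 0.182). The edgeR adjusted p of these 4 genes was between 1.1e-05 and 0.00026.

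The 10 genes with the largest decreases included a cell cycle inhibitor and a chemokine. *CDKN1C*, which encodes the cyclin-dependent kinase inhibitor p57, was at 14.8, 13.1 and 9.89 CPM in high against 80.1, 43.6 and 42.4 CPM in comparison cells, with no overlap between the classes and a log2 fold change of -2.22 ± 0.156 (adjusted p = 3e-06, edgeR). *THBS1*, the matrix protein thrombospondin 1, was at 51.7, 19.7 and 3.74 against 171, 73.3 and 9.98 CPM, a log2 fold change of -1.72 ± 0.140. *PTGES*, which makes prostaglandin E2, was at 7.59, 1.64 and 8.55 against 31.1, 18.8 and 19.9 CPM (-1.85 ± 0.222). *THBS1* differed more between cows than between classes, so its decrease shows only within each cow, while the classes did not overlap for *PTGES*.

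The chemokine *CXCL3* was at 21.1, 41.9 and 12.8 against 58.0, 214 and 32.4 CPM (log2 fold change -1.69 ± 0.167) and the interferon-induced transcription factor *IRF1* at 8.88, 29.6 and 5.08 against 33.5, 101 and 9.95 CPM (-1.69 ± 0.172). The acute-phase genes *SAA3* and *M-SAA3* are close relatives whose reads may be split between them. *M-SAA3* was at 18.7, 26.3 and 0 against 63.1, 63.6 and 2.37 CPM (-1.67 ± 0.204). *SAA3* was at 6.23, 23.8 and 0 against 52.4, 28.4 and 0.531 CPM (-2.17 ± 0.428, adjusted p = 0.0027, edgeR), and without cow 1 its log2 fold change was -0.38 with an adjusted p of 0.56, so its call rests on cow 1. *AOX1*, aldehyde oxidase, was at 12.2, 3.28 and 6.15 against 61.9, 15.3 and 10.8 CPM (-1.93 ± 0.248, and -1.17 without cow 1). The call of *M-SAA3* was lost when cells were matched on nuclear UMIs (-1.24, adjusted p = 0.053) and in marker-free cells (-0.29, adjusted p = 0.32), and that of *SAA3* with DESeq2 (adjusted p = 0.18), with cells matched on nuclear UMIs (adjusted p = 0.052) and in marker-free cells (edgeR where DESeq2 is not named). *IRF1* lost its call after matching on clusters.

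**Figure D2:**
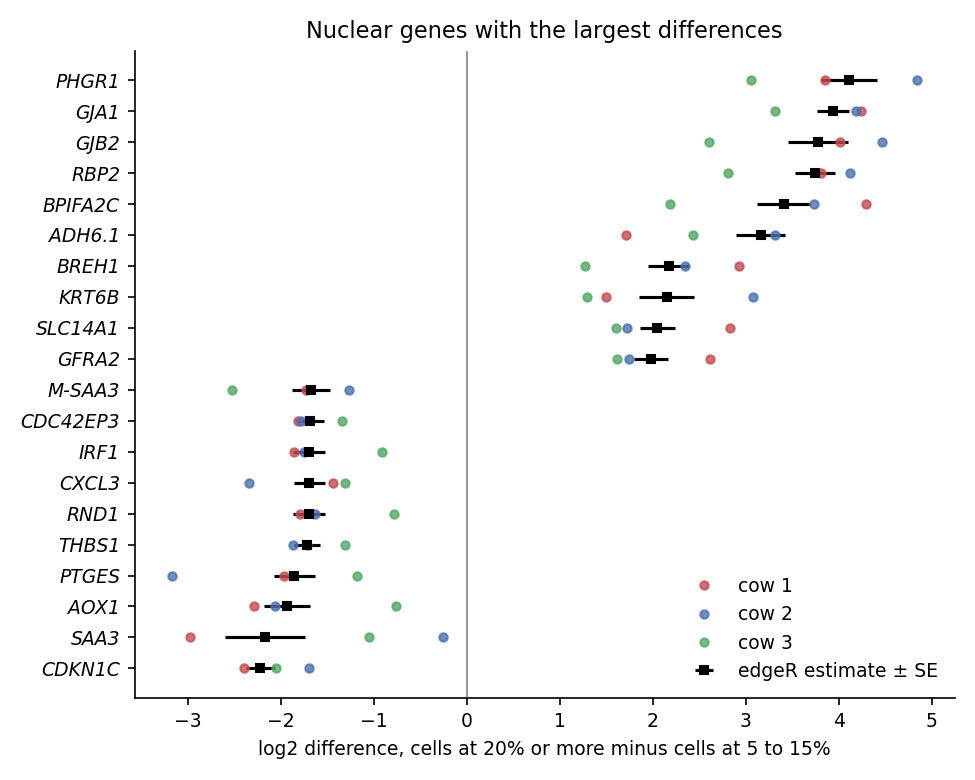
Each row is a nuclear gene, and the horizontal axis is the log2 difference between cells at 20% or more mitochondrial UMIs and cells at 5 to 15%. Coloured points are the 3 cows and black squares the edgeR estimates with their SE, and the cows lie on the same side of 0 for each of the 20 genes, from 4.11 for *PHGR1* to -2.22 for *CDKN1C*.

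The nuclear genes for the same respiratory complexes mostly did not pass the test. Of 38 nuclear complex I genes tested, 4 were higher and 0 lower, with a median log2 fold change of 0.15. *NDUFS1*, a subunit of the electron input module, was at 89.6, 109 and 105 against 55.2, 75.4 and 74.3 CPM, a log2 fold change of 0.58 ± 0.108 (adjusted p = 0.0018, edgeR). *NDUFV1*, *NDUFB7* and *NDUFS6* rose by 0.42 to 0.47 on the log2 scale. Of 4 complex II genes none was called (0 higher, 0 lower), and *SDHB* was at 290, 477 and 356 against 296, 461 and 382 CPM. Complex III had 3 of 9 genes higher and 0 lower, namely *UQCRB* (0.49 ± 0.111), *UQCRQ* (0.47 ± 0.111) and *UQCR11* (0.38 ± 0.104). Without cow 2 the calls of *NDUFV1*, *NDUFB7*, *NDUFS6*, *UQCRQ* and *UQCR11* were lost, and without cow 1 that of *NDUFS6*. Matching on clusters ended the calls of all 7 of these genes, and only *NDUFS1* kept its call in marker-free cells. The share of higher genes in complex I was near the background of 11.1%, while none was lower against a background of 12.9%.

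Complex IV and complex V held genes of both directions. Of 9 nuclear complex IV genes tested, *COX7A2* (0.67 ± 0.118), *COX6A1* (0.47 ± 0.110) and *COX7B* (0.37 ± 0.108) were higher, while *COX7A2L*, which takes part in joining complexes III and IV, was at 245, 437 and 366 against 412, 631 and 615 CPM and was lower (-0.68 ± 0.105, adjusted p = 0.0006, edgeR). Of 15 complex V genes, *ATP5F1B*, the catalytic beta subunit (0.52 ± 0.106), *ATP5ME* and *ATP5F1E* were higher. *ATP5MC2*, a gene for the membrane ring, was at 208, 618 and 371 against 700, 843 and 571 CPM and was lower (-0.94 ± 0.190, adjusted p = 0.0031, edgeR). Without cow 1 its log2 fold change was -0.53. Reads of *ATP5MC2* and of its relatives may be split by the counting. The calls of *COX7B* and *ATP5F1E* were lost without cow 1 or without cow 2, and those of *COX6A1* and *ATP5ME* without cow 2. Matching on clusters ended the calls of all 6 higher genes, and *COX7A2* alone of them was still called in marker-free cells. Scaled to nuclear UMIs with no TMM, 20 of 38 complex I, 7 of 9 complex III, 6 of 9 complex IV and 8 of 15 complex V genes were higher, against a background of 27.4%, and *SDHB* turned from -0.03 to 0.23. The number of subunits called higher hence depends on the scaling.

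The gene for another form of complex IV subunit 8 was singled out after its values were seen. *COX8B*, the form known from heart and skeletal muscle in other mammals, was at 1711, 1026 and 360 plain CPM in high against 355, 243 and 98.4 in comparison cells of cows 1, 2 and 3. The lowest high sum was only just above the highest comparison sum, because cow 1 was high in both classes, but each cow showed a clear rise and the log2 fold change was 1.82 ± 0.112 (adjusted p = 9.3e-07, edgeR). *COX8A*, the widespread form, did not pass the test, with a log2 fold change of 0.22 ± 0.104 (adjusted p = 0.13, edgeR). Whether the change in *COX8B* exceeded that in *COX8A* was not tested. Its values after matching on clusters, in marker-free cells, with DESeq2 or with a cow left out are not given here. The level of *COX8B* also differed between clusters of nuclear expression, described further on, from 56.0 to 3031 plain CPM in cow 1.

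Few genes that make or maintain mitochondria were called, and most shares lay near or under the 11.1% higher and 12.9% lower among all genes. Among 75 mitochondrial ribosomal protein genes tested, 1 was higher (*MRPS18A*, 0.64 ± 0.130) and 8 were lower, with *MRPL45* at -0.60 ± 0.112, *MRPL9* at -0.60 ± 0.111 and *MRPS24* at -0.58 ± 0.112, and the median was -0.14. With no TMM the median was 0.12, beside 0.25 over all genes. In that fit 5 were higher and 0 lower, beside 27.4% and 5.23% of all genes. The list's median thus lay below that of all genes under both scalings. Of 26 genes for the upkeep of mitochondrial DNA and RNA, 4 were higher and 0 lower, among them *LRPPRC*, which stabilises mitochondrial mRNAs, at 99.1, 92.7 and 88.2 against 61.0, 58.3 and 69.4 CPM (0.57 ± 0.115, adjusted p = 0.0033, edgeR), and *POLRMT*, the mitochondrial RNA polymerase (0.79 ± 0.237, adjusted p = 0.027, edgeR). *TWNK*, the mitochondrial helicase, and *FASTKD1* were the others. *LRPPRC* alone of the 4 was called with DESeq2 or without cow 1, and *TWNK* and *FASTKD1* lost the call with any cow left out. Once cells were matched on clusters 0 of 24 upkeep genes were higher, beside 6.99% of all genes, with *LRPPRC* at 0.22 (adjusted p = 0.12, edgeR). The call of *MRPS18A* was lost there as well. In marker-free cells *POLRMT*, *TWNK* and *FASTKD1* lost the call. Of 10 regulators of biogenesis tested, *ESRRA*, a nuclear receptor that acts with PGC-1 coactivators, was higher (143, 196 and 124 against 72.4, 106 and 94.0 CPM, log2 fold change 0.76 ± 0.125), and *YY1* was at 0.00 ± 0.115. *ESRRA* was at 0.27 after matching on clusters, inside the fold limit.

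Of 19 genes of fusion, fission and mitophagy, 2 were higher and 6 lower. Among all genes, 11.1% were higher and 12.9% lower, which is the background for this list and the next. *GABARAPL1*, a ubiquitin-like protein of autophagosome membranes, was lower, at 60.8, 40.2 and 21.7 against 178, 87.8 and 41.0 CPM (-1.26 ± 0.139, adjusted p = 7.5e-05, edgeR), and so were its relatives *MAP1LC3A* (-0.97 ± 0.133) and *GABARAP* (-0.67 ± 0.108). After matching of cells on clusters, described further on, *GABARAPL1* (-0.25, adjusted p = 0.12) and *MAP1LC3A* (-0.13, adjusted p = 0.52) lost the call (edgeR). *PINK1*, the kinase that marks depolarised mitochondria, rose by 0.65 ± 0.155. The list's median was -0.15, and 0.11 with no TMM, when 6 were higher and 4 lower, beside 27.4% and 5.23% of all genes. Of 27 genes of protein import and folding, 3 were higher (*LONP1*, the matrix protease, 0.60 ± 0.112; *HSPE1*, a matrix chaperonin, 0.53 ± 0.124; *TIMM8B*, 0.47 ± 0.127) and *TIMM9* was lower (-0.53 ± 0.152). With no TMM 14 of the 27 were higher and 0 lower, beside 27.4% of all genes higher. Without cow 2 the calls of *PINK1*, *HSPE1*, *TIMM8B* and *TIMM9* were lost, and without cow 1 that of *TIMM9*. These 4 also lost the call after matching on clusters and in marker-free cells, and *LONP1*, at 0.35 after matching, was inside the fold limit.

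For VFA genes the calls on all cells with TMM went 1 way. Of those for uptake and ketone body synthesis, 14 of 19 tested were higher and 0 were lower, beside 11.1% and 12.9% of all genes. Their median log2 fold change was 0.73. Matching on clusters left 4 of 18 higher and 1 lower, beside 6.99% and 6.04% of all genes, with a median of 0.26. Scaled to all UMIs, 14 were higher and 1 lower, beside 9.89% and 15%. The list was drawn up with 24 genes, and those not tested were too low. *SLC16A1*, the monocarboxylate transporter MCT1, was at 867, 1023 and 906 against 317, 404 and 500 CPM (1.22 ± 0.123, adjusted p = 4.5e-05, edgeR). The sodium-proton exchangers *SLC9A2* (10.5, 7.39 and 4.28 against 1.65, 1.46 and 1.43 CPM) and *SLC9A3* (2.58, 4.10 and 2.94 against 0.367, 0.948 and 0.986 CPM) rose by 2.19 ± 0.292 and 2.03 ± 0.406 at low levels. After matching of cells on clusters *SLC9A2* was at 0.07 with an adjusted p of 0.93 (edgeR), and *SLC9A3* was too low to be tested. In marker-free cells both were too low to be tested. Without cow 1, 10 of 20 genes of the list were higher and 0 lower, beside 5.52% of all genes higher and 6.52% lower.

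For other pathways of fuel use, the backgrounds of 11.1% higher and 12.9% lower stand beside the counts. Of 22 genes listed under fatty acid oxidation, 5 were higher and 2 lower. The latter were *PDK4* and *ANGPTL4*, neither of which encodes an enzyme of the oxidation itself. *ACADS*, the short-chain acyl-CoA dehydrogenase, was at 1056, 1682 and 1176 against 521, 920 and 992 CPM (0.71 ± 0.135), and *CPT1A*, which admits long-chain fatty acids into mitochondria, rose by 0.71 ± 0.132. *PDK4*, the kinase that shuts off pyruvate dehydrogenase, was at 94.5, 117 and 32.6 against 275, 485 and 45.7 CPM and fell by 1.40 on the log2 scale (SE 0.205, adjusted p = 0.00042, edgeR), and *ANGPTL4* fell by 0.87. After matching of cells on clusters both calls were lost, with *PDK4* at -0.11 (adjusted p = 0.48) and *ANGPTL4* at -0.08 (adjusted p = 0.73, edgeR), and so were those of *ACADS* (0.14, adjusted p = 0.13, edgeR) and of the genes *CS*, *PFKL* and *IDH3G* named next. In the citric acid cycle 2 of 14 genes were higher (*OGDH*, 0.86 ± 0.121, and the citrate synthase gene *CS*, 0.57 ± 0.127) and 1 was lower (*IDH3G*, -0.43 ± 0.106). Of 15 glycolysis genes, *PFKL* was higher (0.45 ± 0.116) and *LDHB* lower (-0.77 ± 0.113). These last lists were near or under the background, and *CS* and *PFKL* lost the call without cow 1. *PFKL* was not called in marker-free cells either.

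Most tested immediate-early and cytosolic ribosomal protein genes were lower. Immediate-early genes encode transcription factors and feedback regulators that cells switch on within minutes of a stimulus, tissue dissociation included. Of the 20 tested, 0 were higher and 16 were lower, beside 11.1% and 12.9% of all genes, with a median of -0.82. *JUNB* was at 368, 584 and 140 against 1342, 1528 and 267 CPM (-1.40 ± 0.148, adjusted p = 5.5e-05, edgeR). *FOS* was at 358, 309 and 78.3 against 1221, 746 and 167 CPM (-1.39 ± 0.132), and *BTG2* fell by 1.38. The whole list summed to 6139, 8289 and 2189 plain CPM in high against 12450, 13030 and 2871 in comparison cells. The levels of cow 3 lay far below those of the other cows in both classes. Without cow 1, 0 genes of the list were higher and 12 of 20 lower, beside 5.52% and 6.52% of all genes. Matching on clusters left 1 of 19 higher and 2 lower, beside 6.99% and 6.04% of all genes, and ended the calls of *JUNB* and *BTG2*.

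Of 75 tested genes for cytosolic ribosomal proteins, 2 were higher and 63 lower, beside 11.1% and 12.9% of all genes, with a median of -0.54. The list summed to 360600, 403200 and 354200 plain CPM in high against 462300, 480200 and 418900 in comparison cells, with no overlap between the classes. *RPL10A* was at 1934, 4360 and 2767 against 5020, 7113 and 4784 CPM (-0.96 ± 0.125), *RPS4X* at 1582, 2619 and 2170 against 3421, 4616 and 3655 CPM (-0.89 ± 0.104) and *RPL10* fell by 0.82. *RPS29* was called higher at a low level (1.16 ± 0.317), but without cow 1 its log2 fold change was 0.23 with an adjusted p of 0.81, so that call rests on cow 1 (1.78 without cow 3), and DESeq2 did not call it (adjusted p = 0.073). Many of these genes have processed pseudogenes with which they can share reads. With no TMM, 3 of the list were higher and 29 lower, beside 27.4% and 5.23% of all genes, with a median of -0.29.

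Stress genes were called in both directions, beside 11.1% higher and 12.9% lower among all genes, and the counts depended on the scaling. Of 16 tested genes of ATF4 and the integrated stress response, the pathway that slows translation under mitochondrial or amino acid stress, 1 was higher (*VLDLR*, 0.52 ± 0.148) and 7 lower, with a median of -0.46. *ATF3*, which also belongs to the immediate-early list, fell by 1.30 (210, 421 and 18.2 against 749, 767 and 38.7 CPM), *PHGDH* of serine synthesis by 0.65 and *PPP1R15A* by 0.63. Of 23 p53 and apoptosis genes, 4 were higher, among them cytochrome c, *CYCS* (0.76 ± 0.131), and the pore protein *BAK1* (0.72 ± 0.152), and 4 were lower, among them the anti-apoptotic *BCL2* (-1.34 ± 0.229) and *DIABLO* (-0.58 ± 0.122). Heat shock genes included 4 higher and 3 lower of 15. With no TMM, when 27.4% of all genes were higher and 5.23% lower, 7 and 0 heat shock genes, 8 and 1 p53 and apoptosis genes and 1 and 3 ATF4 genes were higher and lower. *HSPH1* (152, 121 and 41.2 against 67.2, 44.4 and 34.6 CPM, 0.97 ± 0.174), *CRYAB* (0.80 ± 0.168) and *BAG3* (0.57 ± 0.144) were higher and *DNAJA1* was lower (-0.51 ± 0.116). Without cow 2 the calls of *VLDLR*, *BAG3* and *DNAJA1* were lost and *CRYAB* was at 0.49, and without cow 3 the call of *VLDLR* was lost. After matching on clusters 6.99% of all genes were higher and 6.04% lower. The ATF4 list then had 0 higher and 2 lower of 13 (median -0.09), the p53 list 0 and 1 of 20 and the heat shock list 1 and 0 of 15. Calls that then ended were those of *VLDLR*, *PPP1R15A* (-0.01), *CYCS*, *BAK1*, *BCL2*, *BAG3*, *DNAJA1* and *CRYAB* (0.10, adjusted p = 0.49, edgeR). In marker-free cells the ATF4 list had 0 higher and 2 lower of 15, beside 8.66% and 10.2% of all genes. There *CRYAB* was at 0.08 (adjusted p = 0.75, edgeR), and *PHGDH*, *VLDLR*, *BCL2*, *BAK1* and *BAG3* lost the call too. *VLDLR* was not called with DESeq2 either (adjusted p = 0.073).

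Of 20 antioxidant genes, 4 were higher and 2 lower, beside 11.1% and 12.9% of all genes, the latter share being under its background. With no TMM 8 were higher and 1 lower, beside 27.4% and 5.23% of all genes. After matching of cells on clusters 0 were higher and 2 lower, beside 6.99% and 6.04%. *TXNRD1*, thioredoxin reductase (0.93 ± 0.172), *PRDX6* (0.49 ± 0.118) and *TXN* (0.44 ± 0.116) were higher, and cytosolic superoxide dismutase *SOD1* was lower, at 204, 199 and 246 against 323, 353 and 347 CPM (-0.66 ± 0.109, adjusted p = 0.00091, edgeR). Among 13 genes of secretion and endoplasmic reticulum folding, 1 was higher and 4 lower, beside 11.1% and 12.9% of all genes, with *PDIA4* at -0.68 ± 0.139 and *HSPA5* at -0.48 ± 0.141. Without cow 1 *HSPA5* was at -0.23 with an adjusted p of 0.32 (edgeR). In that fit 0 genes of the list were higher and 1 lower, beside 5.52% and 6.52% of all genes. Of 12 splicing and nuclear RNA-binding genes, 1 was higher (*SRSF1*, 0.55 ± 0.118) and 3 lower (*NPM1*, -0.77 ± 0.119; *DDX5*, -0.49 ± 0.131; *HNRNPA1*, -0.37 ± 0.107). Without cow 2 the calls of *PRDX6*, *TXN*, *HSPA5*, *DDX5* and *HNRNPA1* were lost. These 5, *TXNRD1*, *SOD1* and *PDIA4* lost the call after matching on clusters, and *PRDX6* turned to -0.32. In marker-free cells *PRDX6*, *TXN*, *PDIA4*, *DDX5* and *HNRNPA1* lost the call too.

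**Figure D3:**
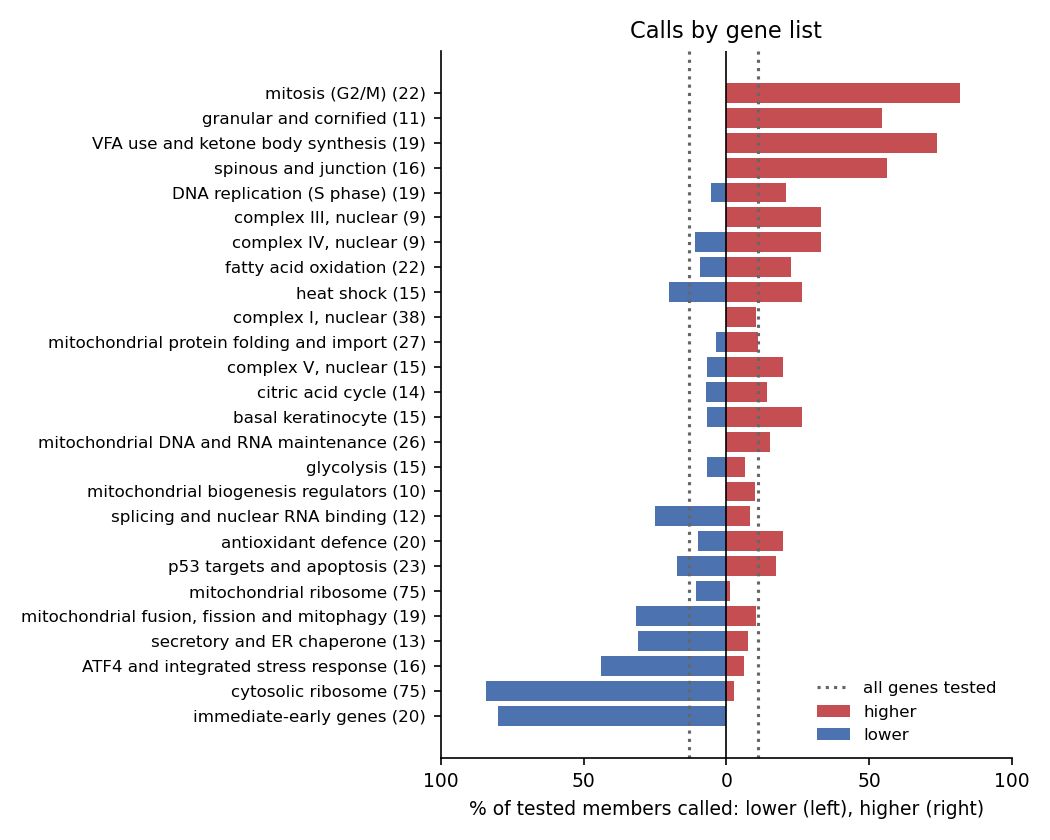
Each bar gives the percent of a list's tested genes called higher (red, to the right) or lower (blue, to the left) in cells at 20% or more mitochondrial UMIs, with the number tested in brackets and lists of at least 9 tested genes in the order of their median log2 fold change. The dotted lines mark the shares of all genes tested, 11.1% higher and 12.9% lower, and mitosis genes (18 of 22 higher) and immediate-early genes (16 of 20 lower) stand at the ends.

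Genes of cell layers and of the cell cycle differed with the share. Of 22 mitosis genes, 18 were higher and 0 lower, beside 11.1% and 12.9% of all genes, with a median of 1.08. *MKI67*, a marker of cycling cells, was at 107, 59.9 and 109 against 19.8, 16.4 and 86.6 CPM (1.48 ± 0.287, adjusted p = 0.0025, edgeR), and *TOP2A* at 131, 68.9 and 172 against 28.9, 20.6 and 143 CPM (1.34 ± 0.265). The spindle protein gene *TROAP* (1.62 ± 0.194) and the checkpoint kinase gene *BUB1B* (1.31 ± 0.282) rose as well. Cow 3, whose comparison cells already had high levels, showed the smallest differences for *MKI67* and *TOP2A*. With DESeq2 the adjusted p was 0.047 for *MKI67*, and the calls of *TOP2A* (adjusted p = 0.055) and *MCM4* (adjusted p = 0.086) were lost. Of 19 DNA replication genes, 4 were higher, *MCM2*, *MCM3* and *MCM4* of the replicative helicase among them, and *RFC2* was lower. Without cow 1 the log2 fold changes of *MKI67*, *TOP2A* and *BUB1B* were 0.93, 0.85 and 0.75, and without cow 3 that of *BUB1B* was 2.13. Without cow 1 the mitosis list had 12 of 22 genes higher and 0 lower, and the replication list 0 of 19 higher and 2 lower, beside 5.52% and 6.52% of all genes, so the higher replication genes rest on cow 1. Matching on clusters ended the calls of *MKI67*, *TOP2A*, *BUB1B*, *MCM2*, *MCM3* and *MCM4*. *BUB1B* lost the call in marker-free cells as well (adjusted p = 0.13, edgeR).

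Of 16 spinous and junction genes tested, 9 were higher and 0 lower, beside 11.1% and 12.9% of all genes, with a median of 0.59. Besides *GJA1* and *GJB2*, *KRT6A* was at 402, 1009 and 894 against 107, 299 and 523 CPM (1.48 ± 0.174), *NOTCH3* rose by 1.54 ± 0.207 and the desmosomal cadherin gene *DSC2* by 0.99 ± 0.151. The keratin *KRT10*, a spinous marker of the study, did not pass the test (0.28 ± 0.124, adjusted p = 0.11, edgeR). The spinous marker *DSG1* was too low to be tested. Of 11 granular and cornified genes tested, out of 25 listed, 6 were higher and 0 lower. They included *TGM3*, a transglutaminase (2.29 ± 0.248), *GSTA1* (319, 453 and 700 against 65.4, 104 and 380 CPM, 1.75 ± 0.207) and *S100A8* (738, 861 and 700 against 187, 272 and 358 CPM, 1.54 ± 0.157). The name of this list is that of the list as drawn up and not of the layers in the study, which took *S100A8* as a spinous marker and *GSTA1* as a gene of GJA1-positive spinous cells. Of the 18 in the table, 5 were at 0 in all high cells. After matching of cells on clusters, 6.99% of all genes were higher and 6.04% lower. The spinous list then had 3 genes higher and 0 lower of 15, with a median of 0.13. The granular list had 1 higher and 3 lower of 10, with a median of -0.06. *KRT6A*, *GSTA1* and *S100A8* were then at -0.07, -0.12 and -0.04, and *GJB2*, *NOTCH3* (0.38, adjusted p = 0.24) and *TGM3* (0.49, adjusted p = 0.14) lost the call (edgeR). *DLK2*, a Notch-pathway protein that the study used as a granular marker, was not in the granular and cornified list. It went the other way, at 47.7, 34.5 and 29.1 against 142, 101 and 46.0 plain CPM (-1.53 ± 0.162, adjusted p = 5.7e-05, edgeR).

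Among basal genes, the keratins *KRT5* (0.11 ± 0.101, adjusted p = 0.44), *KRT15* (0.15 ± 0.0964, adjusted p = 0.3) and *KRT14* (-0.26 ± 0.0942, adjusted p = 0.062) did not pass the edgeR test. Of 15 basal genes, 4 were higher and 1 lower, beside 11.1% and 12.9% of all genes, with the integrin gene *ITGA6* at 197, 172 and 200 against 115, 112 and 139 CPM (0.64 ± 0.107), *LAMB3* at 0.43 ± 0.119, *COL7A1* at 0.85 ± 0.218 and *ITGB1* lower (-0.50 ± 0.112). The call of *COL7A1* was lost without cow 1, that of *ITGB1* without cow 2 and that of *LAMB3* without cow 2 or cow 3. *COL7A1* and *ITGB1* were not called after matching on clusters, and *COL7A1* was not called with DESeq2 (adjusted p = 0.051). In marker-free cells *ITGB1* was at -0.32, inside the fold limit.

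Levels in bins of the share are given as values without a test, and not all changed evenly. *GJA1* stood at 13.1, 8.72 and 9.02 plain CPM in cells at 5 to 10% of cows 1, 2 and 3, at 16.2, 29.4 and 16.7 at 10 to 15%, at 108, 217 and 70.0 at 15 to 20% and at 262, 458 and 167 at 20 to 25%. In cells below 5%, outside both classes, it was at 251, 10.8 and 130, so cows 1 and 3 had *GJA1* at both ends of the range. In cow 2 it went from 458 to 358 at 25 to 30%, a bin of 26 cells. *DLK2* was at 192, 152 and 82.2 at 5 to 10% and at 45.0, 39.1 and 30.0 at 20 to 25%. Immediate-early genes of cow 2 summed to 7371 at 20 to 25% and to 14050 at 25 to 30%, and those of cow 3 to 1948 at 20 to 25%, 2676 at 25 to 30% and 3342 at 30% or more, the last 2 above the 2454 at 10 to 15%. Ribosomal protein genes summed to 461200, 486400 and 451500 at 5 to 10% and to 383900, 412800 and 361400 at 20 to 25%, and to 323500 in cow 1 and 323300 in cow 3 at 30% or more. The nuclear respiratory chain genes summed to 21300, 24760 and 26530 at 5 to 10% and to 33120, 38400 and 39460 at 20 to 25%, and at 30% or more to 33060, 38030 and 35120, none of them above the 20 to 25% value of the same cow.

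**Figure D4:**
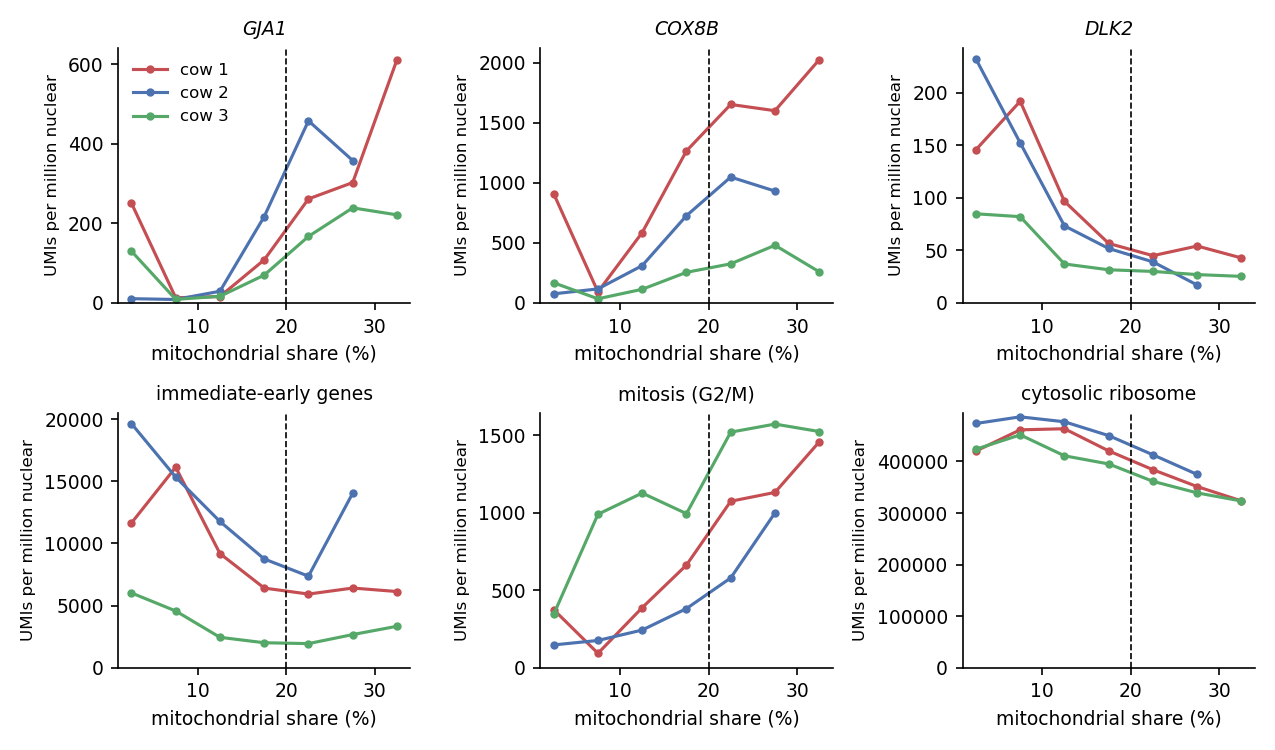
In each panel the horizontal axis is the mitochondrial share of UMIs (bins of 5%, plotted at their centres, the last holding all cells from 30% on) and the vertical axis is plain CPM of a gene or of the sum of a list, with 1 line per cow and bins under 20 cells left out. The dashed line is the limit of 20%, where *GJA1*, *COX8B* and mitosis genes are high and *DLK2*, immediate-early and ribosomal protein genes are low, with *GJA1* at 458 in cow 2 at 20 to 25%.

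High cells were found in every cluster of nuclear expression. In each cow, cells were grouped into 15 clusters by their nuclear genes, and all 15 held at least 1 high cell in each of the 3 cows. The share of high cells in a cluster ran from 4.93 to 90.3% in cow 1, from 0.383 to 18.4% in cow 2 and from 1.11 to 17.0% in cow 3, and 4, 3 and 4 clusters held 56.9, 54.75 and 60.3% of the high cells. In cow 1, the cluster with 90.3% had *GJA1* at 149 and *COX8B* at 1640 plain CPM, and the next, with 81.2%, had *GJA1* at 826. In cow 2, the cluster with the highest share (18.4%) had *GJA1* at 808. In cow 3, the highest share (17.0%, 8 of 47 cells) was in a cluster with a median mitochondrial share of 0.685%, *GJA1* at 859 and *BPIFA2C* at 10450. Other clusters rich in high cells had little *GJA1*, such as a cow 1 cluster with 76.6% (*GJA1* at 27.1, *FOS* at 1149), a cow 1 cluster with 69.7% (*GJA1* at 39.2, *DLK2* at 294) and a cow 3 cluster with 8.72% (*GJA1* at 5.13, *DLK2* at 70.5). Some clusters with much *MKI67* were rich as well, with 71.4% in cow 1 (*MKI67* at 618), 11.5% in cow 2 (441) and 11.3% in cow 3 (410). Others were not, with 2.33% in cow 2 (*MKI67* at 270) and 3.73% in cow 3 (438). At the other end, the cow 1 cluster with 4.93% had *GJA1* at 6.11, *DLK2* at 192 and *FOS* at 2361.

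The test was therefore repeated on cells matched for cluster, with as many comparison as high cells drawn from each cluster of a cow. This kept 137 high cells in cow 2 and 546 in cow 3 but 394 of 1365 in cow 1, whose high-rich clusters held few comparison cells. Depth was not matched here. High cells held 3008697, 1273768 and 3267476 nuclear UMIs in cows 1 to 3, against 4009730, 1944844 and 5758709 in as many comparison cells. Of 8778 genes tested, 614 were higher (6.99%) and 530 lower (6.04%). Of the genes called on all cells and tested in both, 428 of 1114 higher and 363 of 1235 lower genes were called again in the same direction, and their median log2 fold changes shrank from 0.65 to 0.38 and from -0.62 to -0.33. The clusters were made from the same nuclear counts, so they are not independent of the genes tested.

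After matching, *GJA1* (1.45), *PHGR1* (1.45), *RBP2* (1.40) and *ADH6.1* (1.96) were still higher, as were *SLC14A1* (0.84) and *SLC16A1* (0.56), and *CDKN1C* (-0.57), *SAA3* (-2.23) and *FOS* (-0.44) were still lower. *BPIFA2C* went from 3.41 to 0.48, *BREH1* from 2.17 to 0.60 and *GFRA2* from 1.98 to 1.02, and each was still called higher. *JUNB* was at -0.30, inside the fold limit. Others lost their difference or turned. *KRT6B* turned to -0.80 and was called lower (adjusted p = 7.2e-09, edgeR). *GJB2* was at 0.29 with an adjusted p of 0.26, and *MKI67* was at 0.22 with an adjusted p of 0.14 (edgeR). *THBS1* was at -0.15 (adjusted p = 0.47) and *IRF1* at -0.31 (adjusted p = 0.29), and both lost the call (edgeR). The lists stand beside 6.99% higher and 6.04% lower among all genes. Of the lists, mitosis had 1 higher and 1 lower gene of 22, immediate-early genes 1 and 2 of 19, VFA and ketone genes 4 and 1 of 18, granular and cornified genes 1 and 3 of 10, and ribosomal protein genes 2 and 21 of 75, with a median of -0.29. The medians of the nuclear complex I, III, IV and V lists turned to between -0.18 and -0.07, and that of complex II, already negative at -0.06, was -0.18.

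**Figure D5:**
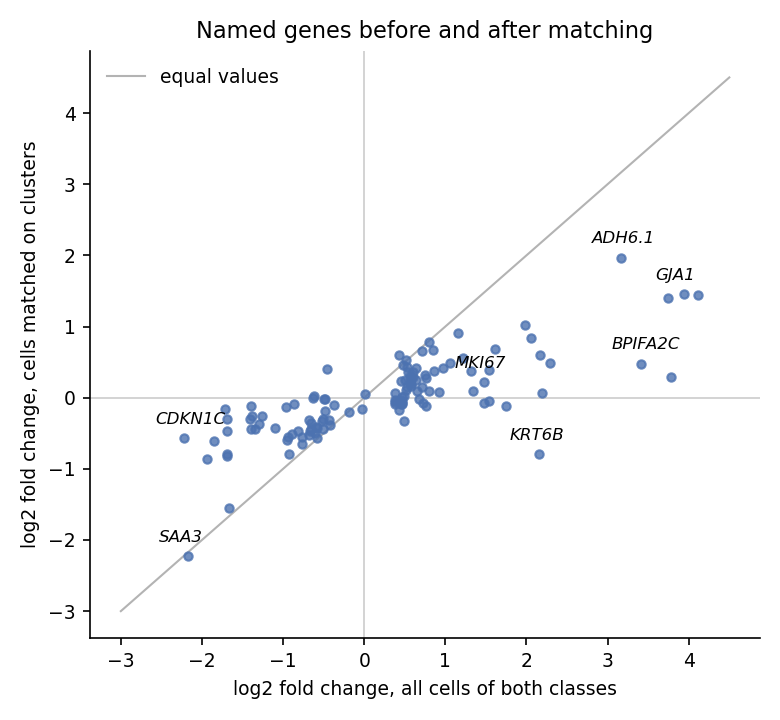
Each point is a named nuclear gene, with its log2 fold change over all cells of both classes on the horizontal axis and over cells matched on within-cow clusters on the vertical axis. The grey diagonal marks equal values, and most points lie nearer to 0 on the vertical axis, with *GJA1* going from 3.94 to 1.45 and *KRT6B* from 2.15 to -0.80, while *SAA3* stays near the line.

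Cells with captured *GJA1*, *MKI67* or *TOP2A* were then left out, which does not remove every cell that expressed them. Without the cells that held at least 1 such UMI, a choice made after seeing the data, 720, 62 and 327 high cells remained in cows 1 to 3, and 866 of 9996 genes were higher (8.66%) and 1020 lower (10.2%). Of the genes called on all cells and tested in both, 646 of 1117 higher and 849 of 1375 lower genes were called again in the same direction. The mitosis list still had 3 genes higher and 0 lower of 15 tested, with a median of 0.69, and *TROAP* was at 1.23 (adjusted p = 0.15, edgeR). Depth was looked at in the same way. With high and comparison cells matched on nuclear UMIs within each cow, 1257 of 9009 genes were higher (14%) and 1306 lower (14.5%). Fewer mRNAs of a nuclear gene per cell and a larger amount of all others cannot be told apart in these relative counts.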

How the data were processed

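Droplet libraries (10x Chromium 3' v3) of 3 cows were aligned by the authors to a cattle genome with Ensembl 99 annotation and counted with Cell Ranger 3.1.0. They filtered cells by genes, UMIs and mitochondrial share (over 40% excluded), identified doublets and kept epithelial cells; no doublet caller was run here. The authors deposited whole-number UMI counts per gene and cell, and a table of log-normalized values on the natural log scale, whose row order named the genes of the count matrix. Over 404880024 values, it differed from the log of the scaled counts by less than the tolerance of 1e-06. The barcode ending was taken as the number in the sample title. Of the barcode sequences, 35 occurred in more than 1 library. A log-normalized matrix of the same cells and the gene lists, which follow another order, were not used.

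Counts of 10733 nuclear genes that passed filterByExpr, out of 19496, were summed per cow and class and tested with edgeR 4.0.16 (R 4.3.3) under TMM, with the cow as a block. Both sums of a cow come from 1 library of 1 animal. Their deviations from the class means correlated at 0.703, 0.626 and 0.680 in cows 1, 2 and 3, and those of different cows at -0.433 to -0.240. The common biological coefficient of variation was 0.111, and TMM factors ran from 0.815 to 1.19. SEs were derived from the F statistic. The fold limit of 0.36 is the study's limit read as a natural log. Clusters came from k-means on 30 principal components of 2000 variable nuclear genes. The test was also run on simulated data, and its outcome there is not given here. The alternatives were DESeq2 1.42.0, no filter, no block, each cow left out, other limits, thinning, matching and other scalings.

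Genes named are the 10 largest differences each way among called genes with the same direction in 3 cows and at least 20 CPM in the higher class, up to 4 called genes per list (or the most abundant where few were called), and the given markers. The members, lists and markers were chosen with earlier results of these data known. The edgeR p-values and SEs rest on a spread estimated partly across all genes, not on the 3 cows of each gene alone. For *BPIFA2C* the cows stood at 4.29, 3.73 and 2.19 on the log2 scale, beside an SE of 0.287. Counting intervals cover counting error only. Genome positions and sequences were not used here. Some named genes are not reported here, though the counts of their lists still hold them.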

Additional observations from a re-analysis of the deposited data

Results flagged for a closer look

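A pair of gene identifiers without a symbol, which stand beside the mitochondrial genes in the table but are not among the 13 that chose the cells, held much RNA that no comparison used. ENSBTAG00000043567 had 4574067 UMIs over all cells, which was 2.46, 3.49 and 3.57% of all UMIs in high cells of cows 1, 2 and 3 against 1.19, 1.95 and 1.66% in comparison cells. ENSBTAG00000043570 had 3377462 UMIs, or 2.25, 2.43 and 2.25% against 1.31, 1.34 and 1.22%. Relative to the UMIs of the 13 genes, the first stood at 0.0938, 0.153 and 0.150 in high against 0.114, 0.180 and 0.142 in comparison cells, and the second at 0.0855, 0.106 and 0.0944 against 0.126, 0.123 and 0.104. The ratio of the second was smaller in high cells of all 3 cows, and that of the first in cows 1 and 2. The other 22 unnamed identifiers held 1854 UMIs together.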

How the results depend on the processing

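Against 1196 higher and 1389 lower genes, DESeq2 gave 755 and 939, cells thinned to 3000 nuclear UMIs 772 and 940, cells matched on clusters 614 and 530, and scaling to nuclear UMIs with no TMM 2944 and 561. Leaving out 1 cow gave 668 to 1319 higher and 789 to 1393 lower genes. The counts were 668 and 789 without cow 1 and 836 and 867 without cow 2, each fit then resting on 2 cows. Without the replicate block that pairs the sums of a cow, edgeR called 0 genes higher and 0 lower, with 1562 at an unadjusted p under 0.05, and DESeq2 was not run without the block. No filter on low counts gave 987 and 1658, with a median of -0.15 over its 18056 genes. The difference in genes per cell was 72.83 at 1500 UMIs, 159.8 for cells at 25% or more, and 94.8 to 124 with 1 cow left out.

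Of 120 named genes, 115 were called, and 54 of 119 kept their sign but lost the call after matching on clusters and 19 more changed sign. The latter were *KRT6B* (-0.80), *NDUFV1* (-0.083), *NDUFB7* (-0.085), *NDUFS6* (-0.18), *UQCR11* (-0.062), *COX7A2* (-0.014), *COX6A1* (-0.048), *COX7B* (-0.087), *ATP5F1E* (-0.029), *TIMM8B* (-0.082), *CYCS* (-0.11), *BAK1* (-0.073), *PRDX6* (-0.32), *TXN* (-0.049), *KRT6A* (-0.075), *GSTA1* (-0.12), *S100A8* (-0.040), *CD14* (0.029) and *CD68* (0.41). *SDHB* turned to 0.0074 without cow 3, 0.018 thinned, 0.037 matched on nuclear UMIs and 0.23 with no TMM, where *SDHD* turned to 0.071. *TWNK* turned to -0.12 thinned and *CD68* to 0.37 without cow 1 (-0.84 to 0.37 with 1 cow left out). *YY1*, near 0, turned to -0.0084 with DESeq2, -0.059 with no filter, -0.0056 with no block, -0.099 without cow 3 (up to 0.087 with another cow left out) and -0.037 scaled to all UMIs. The causes were not tested. With cells at 25% or more, 19 of 119 named genes lost the call, and 24 of 120 did against comparison cells at 10 to 15%. With 3 cows, of which 1 gave most high cells and another only 137, both the number of cows and the depth of these sums limit the values.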
